A study of Mus musculus with 18 samples.

Results

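The acetate response common to wild-type, GLUT3-deficient and ACLY-deficient Th17 cells was taken from a table of transcript levels of 18 libraries. A gene belonged to it when its change with acetate, averaged with equal weights over the 3 genotypes on the log2(TPM + 1) scale, passed limma at an adjusted p below 0.05, and when its change had the same sign in each genotype. TPM, transcripts per 1e+06 transcripts, is a level per length of transcript, so levels of different genes can be set side by side. Of 45703 genes in the table, 14229 had at least 1 TPM in at least 3 libraries and were tested. Of these, 4189 (29.4%) belonged to the common response, 2039 as rises and 2150 as falls. The condition on the sign reads the same values as the test and is a description.

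T helper 17 (Th17) cells are CD4+ T cells that make interleukin-17, here grown in culture from naive T cells for 48 hours and then kept for another 24 hours without or with acetate. All cells were finally restimulated for 5 hours with PMA and ionomycin, drugs that switch on cytokine genes, together with the secretion blockers brefeldin A and monensin. The dose of acetate is given as 20 mM in the protocols of the samples and as 10 mM in the text of the series. The 6 groups, with 3 libraries each, were WT (wild type), GLUT3KO (Slc2a3-fl/fl Cd4-cre) and ACLYKO (Acly-fl/fl Cd4-cre), each without and with acetate. Cd4-cre deletes the floxed segment in cells that have switched on Cd4, so the deletion dates from before the culture and is shared by untreated and treated cells of a genotype. The label for the genetic background is C57BL/6 in 12 libraries and runs from C57BL/7 to C57BL/12 in the other 6, and it was not used. The sources used here give neither age nor sex of the mice, nor whether libraries of a group stem from separate animals or cultures. The spread that the p-values rest on may therefore be technical.

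Acetate enters cells through monocarboxylate transporters and is joined to coenzyme A by the acetyl-CoA synthetases ACSS1, in mitochondria, and ACSS2, in the cytosol and nucleus. ATP citrate lyase (ACLY) makes cytosolic acetyl-CoA from citrate instead, and GLUT3 brings in glucose, from which that citrate is largely made. Acetyl-CoA feeds fatty acid and sterol synthesis and is the acetyl donor of histone acetyltransferases, while histone deacetylases and sirtuins remove the acetyl groups again.

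Depth was 18.7 to 30.1 M reads per library (median 23.3 M). CD4 T cell markers (Cd3d, Cd3e, Cd3g, Cd4, Cd28, Trac and Lck) summed to 1725 to 4641 TPM over all libraries. Their sums went from 2781 to 2879 TPM without acetate to 3004 to 3197 TPM with it in WT. In GLUT3KO they went from 4234 to 4641 down to 3892 to 3958 TPM, and in ACLYKO from 1725 to 2086 up to 2857 to 3129 TPM. Of these 7 markers 4 were called higher and 1 lower in the average. Of 9 macrophage and monocyte markers, C1qa, C1qb and C1qc were at 0 in all 18, and 2 others were tested, with neither called. That list summed to between 1.619 TPM (untreated WT) and 9.58 TPM (untreated ACLYKO). Without acetate, gamma-delta T cell markers summed to 2.498 to 4.182 TPM in WT, 36.62 to 99.83 in GLUT3KO and 11.56 to 22.23 in ACLYKO. With acetate the sums were 3.33 to 4.056, 57.61 to 109.5 and 10.35 to 14.05 TPM. The part of such cells in the values below was not tested. The Th17 markers Rora, Il17a, Il17f, Il23r, Il1r1 and Ccr6 were present in the tested set. Within groups, 63.6% of the variance lay on 1 axis, whose loadings across genes had Spearman correlations of -0.423 with GC content and 0.35 with exon length. The highest scores on it, 0.031 to 0.674, belonged to 5 libraries, which were replicate 1 of untreated WT, replicates 1 and 3 of untreated GLUT3KO, and replicate 1 of ACLYKO both untreated and treated. The lowest scores, -0.4, -0.274 and -0.269, belonged to untreated ACLYKO replicates 3 and 2 and GLUT3KO replicate 2, which were kept. As 4 of the 5 are untreated, values without them are given where they change a call or a count by more than 1.5 times. Untreated GLUT3KO then keeps 1 library, whose spread is taken to be that of the remaining groups. Acly stood at 392 to 400.3 TPM in untreated WT and at 7.01 to 14.4 TPM in ACLYKO without and with acetate, and Slc2a3 at 14.4 to 32.6 TPM in WT and at 4 to 13.6 TPM in GLUT3KO.

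Across all tested genes, 4648 (32.7%) passed the test of the average over genotypes, 2306 (16.2%) higher with acetate and 2342 (16.5%) lower. The common response took 14.3% of the tested genes as rises and 15.1% as falls, and a further 459 genes passed the test of the average with unequal signs. Rises had a median log2 change of 0.61, falls one of -0.49, and all tested genes one of 0.014. Most members moved by less than a factor of 2, since 344 rises (2.42% of tested genes) and 105 falls (0.738%) reached a log2 change of 1. The test leaned on the pooling of genotypes for many members. Of the 4189 members, 1562 passed the test in no single genotype, 1564 in 1, 693 in 2 and 370 in all 3. Over all tested genes, 6.5% passed in WT (4.22% higher, 2.28% lower), 12.7% in GLUT3KO (4.86% higher, 7.89% lower) and 17.3% in ACLYKO (11.7% higher, 5.6% lower). The 3 treated libraries lay entirely above the 3 untreated ones in every genotype for 804 of the rises, and entirely below for 556 of the falls, where 825 (5.8%) and 559 (3.93%) of all tested genes did so. Among all tested genes, 233 (1.64%) were called higher and 137 (0.963%) lower in each of the 3 genotypes. Those 2 counts were 469 and 390 without ACLYKO replicate 1, 596 and 859 without the 5 high-scoring libraries, and 366 and 289 after correction for GC content and length. Without GLUT3KO with acetate replicate 2 they were 154 and 85, and the lower count was between 62 and 90 without WT replicate 1, any WT library with acetate, GLUT3KO with acetate replicate 3 or ACLYKO with acetate replicate 3. Without the 5 libraries 4164 genes were lower in the average, 3679 of them falls of the common response.

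Size and direction were not spread evenly over the genotypes. Rises had medians of 0.52 in WT, 0.51 in GLUT3KO and 0.79 in ACLYKO, and falls had medians of -0.44, -0.60 and -0.44. ACLYKO held the widest rise for 1227 of the 2039 rises and GLUT3KO the widest fall for 1174 of the 2150 falls. The medians of all tested genes were -0.018 in WT, -0.069 in GLUT3KO and 0.0996 in ACLYKO. The share of higher genes among those called in GLUT3KO was 38.1% with TPM, 57.5% under median-ratio scaling and 50.5% after correction for GC and length. In ACLYKO the same shares were 67.6%, 56.6% and 52.2%, so the balance of rises and falls within a genotype depended on the scaling. For the average the share was 49.6%, 53.6% and 48.7%. Fallen genes were also longer, with a median exon length of 4128 bases against 2706 for rises and 2835 for all tested genes, and their median GC content was 48.06% against 53% and 50.42%. These are the 2 properties that followed the main axis within groups, and their part in the counts of rises and falls was not tested beyond the corrected values given here.

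**Figure D1:**
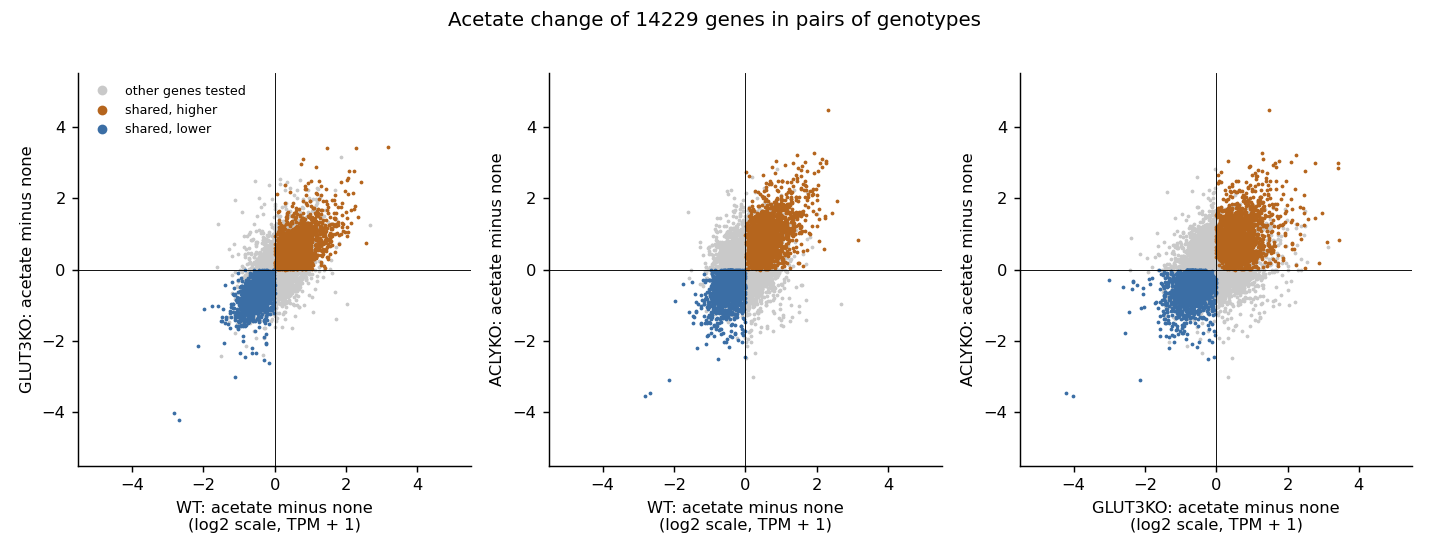
Change with acetate of all tested genes on the log2(TPM + 1) scale in each pair of genotypes, with members of the common response marked as rises or falls. The cloud is stretched along the diagonal, with Pearson r of 0.72, 0.59 and 0.52 across genes.

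The plot of changes in pairs of genotypes gives the likeness over all 14229 genes, where Pearson r was 0.72 between WT and GLUT3KO, 0.59 between WT and ACLYKO and 0.52 between GLUT3KO and ACLYKO (Spearman correlations 0.74, 0.58 and 0.53). These are correlations across genes, which are no independent replicates, and the 3 changes share no library. To test the direction in samples that had no part in the choice, genes were called in the 12 libraries of a pair of genotypes and looked up in the 6 of the genotype left out. In WT, 96.94% of the 1274 genes chosen as rises and 92.91% of the 1184 chosen as falls moved the same way, where 47.81% and 52.01% of all tested genes moved that way. GLUT3KO gave 84.12% of 1480 rises and 96.03% of 781 falls, beside 44.21% and 55.7% of all genes. ACLYKO gave 90.62% of 2249 rises and 77.8% of 3293 falls, beside 57.62% and 42.13%. A fit of the left-out genotype alone called 49.69% of the chosen rises in WT, 30.14% in GLUT3KO and 11.92% in ACLYKO, where it called 6.64%, 5.83% and 2.41% of all tested genes higher. For the chosen falls the shares were 21.79%, 56.72% and 1.579%, beside 3.63%, 11.2% and 0.569% of all tested genes lower. In these fits of 6 libraries ACLYKO falls were therefore the arm with the fewest calls of its own. In the fit of all 18 libraries the smallest share of tested genes was that lower in WT (2.28%), beside 5.6% lower in ACLYKO.

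Sharing a direction did not always mean sharing a size. An F test in limma of the difference of the acetate change between genotypes called 614 genes (4.32% of those tested), and 253 of the 4189 members, which is 6.04% of them. With a replicate block for genotype and number these counts were 337 and 153, and without ACLYKO replicate 1 they were 1106 and 416. Among fits without 1 library the lowest counts, 381 and 160, came without ACLYKO with acetate replicate 3. The count over all genes was 395 without GLUT3KO replicate 3. Among members it was 164 or 168 without any 1 of GLUT3KO replicate 3, GLUT3KO with acetate replicate 2 and WT with acetate replicates 2 and 3. Of the 370 members called in every genotype, 34 were also called in the F test.

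Interleukin-17A, the signature cytokine of these cells, was among the largest rises. In WT, Il17a (GeneID 16171, chromosome 1, 20730905 to 20734496, plus strand, GRCm38.p6) stood at 613, 599 and 703 TPM without acetate and at 2111, 1458 and 1807 TPM with it. GLUT3KO went from 91, 192 and 152 TPM to 1456, 1393 and 1616 TPM. ACLYKO went from 38.2, 117 and 156 TPM to 544, 662 and 744 TPM. Treated and untreated libraries did not overlap in any genotype, and treated ACLYKO libraries spanned the range of untreated WT. The average log2 change was 2.58 ± 0.23 (SE, limma adjusted p = 1.33e-06), made up of 1.48, 3.41 and 2.85 in WT, GLUT3KO and ACLYKO. The F test of that difference gave an adjusted p of 0.13. Its promoter is shown because Il17a is the gene that names the cell type. In capitals is a match to TGANTCA, a loose pattern searched for AP-1 factors that allows any middle letter, here A.
Il17a promoter, plus strand, chr1:20730655-20730954: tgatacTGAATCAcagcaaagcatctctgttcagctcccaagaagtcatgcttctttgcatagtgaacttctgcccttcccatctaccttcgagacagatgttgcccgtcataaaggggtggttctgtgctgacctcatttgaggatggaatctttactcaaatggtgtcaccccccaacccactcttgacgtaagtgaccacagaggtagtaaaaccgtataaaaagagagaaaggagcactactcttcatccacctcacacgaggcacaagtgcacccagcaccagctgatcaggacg
The match begins 244 bases before the RefSeq start of the gene, and the sequence is from RefSeq (GRCm38.p6).

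The neighbour Il17f, whose product pairs with IL-17A, followed in the average but not evenly. It went from 762 ± 99.1 to 1701 ± 203 TPM in WT, from 105 ± 0.688 to 789 ± 91.4 TPM in GLUT3KO and from 289.8 ± 120.4 to 315 ± 33.8 TPM in ACLYKO (mean ± SD, n = 3). The average log2 change was 1.41 ± 0.13 (adjusted p = 1.77e-06), and the F test gave an adjusted p of 0.000732. In ACLYKO the highest untreated library, at 425 TPM, lay above all 3 treated ones. Il22 rose by 1.64 on the log2 scale, Il21 by 0.77, Csf2 (GM-CSF) by 0.81 and Il24 by 2.16. Il24, of the IL-10 family, had group means of 2.57, 9.09 and 1.27 TPM without acetate and of 18.4, 53 and 5.77 TPM with it in WT, GLUT3KO and ACLYKO. Csf2 was not called over WT and ACLYKO alone (adjusted p = 0.205). In all, 9 of 11 tested Th17 cytokine and growth factor genes rose, with a list median of 1.05, where 16.2% of all tested genes rose. Of these 9, Il1a had unequal signs among the genotypes. The exception was Areg, which encodes the epidermal growth factor relative amphiregulin and fell by 1.16 on the log2 scale. The Th17 markers, which include Il17a and Il17f, summed to 1381 to 1587 TPM in untreated and 3134 to 4144 TPM in treated WT, with 336.3 to 411 and 2262 to 2626 TPM in GLUT3KO and 396 to 520.4 and 1090 to 1313 TPM in ACLYKO. In bulk RNA, more cells of a type and more RNA per cell cannot be told apart.

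**Figure D2:**
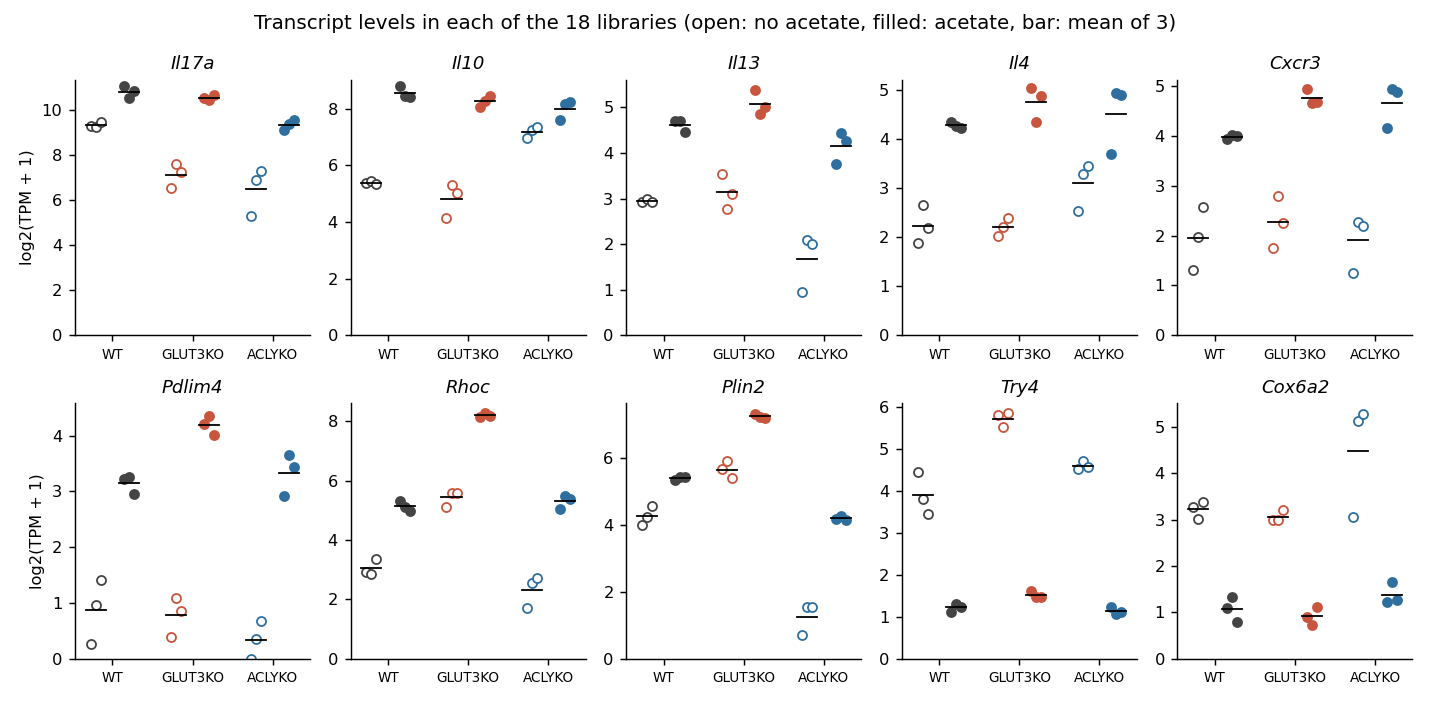
Levels of 10 members of the common response in each library as log2(TPM + 1), by genotype, with untreated libraries as open points, acetate libraries as filled points and bars at the group means. In every panel the treated points lie apart from the untreated ones within each genotype, above for the first 8 genes and below for Try4 and Cox6a2. For genes named as largest rises or falls this was a condition of their choice.

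Il10, which encodes an anti-inflammatory cytokine that Th17 cells can also make, had the smallest F test p among the 15 largest rises named here. WT libraries went from 41, 42.1 and 39 TPM to 442, 345 and 342 TPM. GLUT3KO libraries went from 16.8, 38.3 and 31.5 TPM to 266, 307 and 349 TPM. ACLYKO libraries, which began higher at 123, 150.3 and 162 TPM, reached 193, 285 and 299 TPM. By the rule of choice the groups did not overlap within any genotype. The treated levels of all 3 genotypes lay in nearby ranges. The average log2 change was 2.47 ± 0.14 (adjusted p = 4.17e-08), with 3.17, 3.43 and 0.82 in WT, GLUT3KO and ACLYKO (F test adjusted p = 0.00127). Among IL-10 and its regulators, 5 of 9 tested genes rose (list median 0.41), where 16.2% of all tested genes rose. Besides Il10 itself, the list members that rose were Ahr (1.12), the IL-27 and IL-35 subunit gene Ebi3 (1.26), Bhlhe40 (0.49) and Nfil3 (0.41). Bhlhe40, whose product is known to restrain Il10, was not called over WT and ACLYKO alone (adjusted p = 0.114). Maf, a known activator of Il10, stood at 0.003 on the same scale (adjusted p = 0.986).

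Cytokines of other helper lineages rose with those of Th17 cells. All 6 tested genes of the list of T cell growth, Th1, Th2 and Th9 cytokines were called higher in the average, with a median of 1.33. Of all tested genes 16.2% were called higher. Il13 libraries stood at 6.53, 6.93 and 6.6 TPM in WT, 10.7, 5.85 and 7.51 TPM in GLUT3KO and 0.922, 3.26 and 3 TPM in ACLYKO without acetate. With acetate they stood at 24.9, 24.9 and 20.9 TPM in WT, 40.8, 28.1 and 31.2 TPM in GLUT3KO and 12.5, 20.8 and 18.1 TPM in ACLYKO. By the rule of choice no treated Il13 library overlapped its untreated group (average log2 change 2.03 ± 0.16, limma adjusted p = 5.57e-07). Il4, with IL-13 a Th2 cytokine, rose from 3.83 ± 1.33 to 18.5 ± 0.889 TPM in WT, from 3.64 ± 0.595 to 26.8 ± 6.6 TPM in GLUT3KO and from 7.87 ± 2.69 to 23.6 ± 10.0 TPM in ACLYKO (average 2.01 ± 0.19, adjusted p = 2.24e-06). Ifng rose by 1.39, from 44.2 ± 13.4 to 142 ± 31.9 TPM in WT, from 877 ± 297 to 2339 ± 742 TPM in GLUT3KO and from 155 ± 58.3 to 318 ± 86.5 TPM in ACLYKO. Il2 rose by 1.26, with 1.24, 2.49 and 0.05 in WT, GLUT3KO and ACLYKO (F test adjusted p = 0.0152), and was not called over WT and ACLYKO alone (adjusted p = 0.122). Il9 passed in the average but was no member, since its change was 1.49 in WT and -1.03 in ACLYKO. The Il13 promoter is shown as one of the pair of neighbouring Th2 genes that both rose, with a match to GGAAAA, the core motif of NFAT factors, in capitals as its reverse complement.
Il13 promoter, minus strand, chr11:53634653-53634952: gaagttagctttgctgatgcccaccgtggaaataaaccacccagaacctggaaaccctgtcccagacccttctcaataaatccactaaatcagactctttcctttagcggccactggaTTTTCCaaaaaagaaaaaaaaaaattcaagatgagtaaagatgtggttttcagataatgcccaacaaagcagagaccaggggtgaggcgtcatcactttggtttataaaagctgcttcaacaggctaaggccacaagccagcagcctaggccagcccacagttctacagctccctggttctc
It begins 132 bases before the RefSeq start. The promoter and its build are those of RefSeq (GRCm38.p6).

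Chromosomal neighbours of these cytokines were taken as genes that reach within 250 kb of the cytokine gene on either side, with distances from start to start. Over all tested genes, 14.3% were common rises and 15.1% common falls. Near Il4 (chromosome 11, 53612460 to 53618665), 10 genes were tested and 3 were common rises, which were Il4, Il13 at 16.04 kb and Il5 at 102.1 kb (0.90). Between Il13 and Il5 lies Rad50, a DNA repair gene whose introns hold the control region of this cluster, and its change was -0.84 (adjusted p = 0.07). Irf1, an interferon response factor gene 151.3 kb away, fell by 1.02. Near Il3 on the same chromosome, Pdlim4, Csf2 and Il3 (1.52) were common rises among 7 tested genes, while P4ha2, which lies between Pdlim4 and Csf2, stood at -0.019 (adjusted p = 0.916). Near Il17a, 3 of 4 tested genes were common rises, namely Il17a, Il17f at 54.37 kb and Paqr8 (0.69). Near Il10, 4 of 8 tested genes were common rises, among them Il24 at -132.4 kb, and 1, the kinase gene Ikbke, was a common fall (-0.64).

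**Figure D3:**
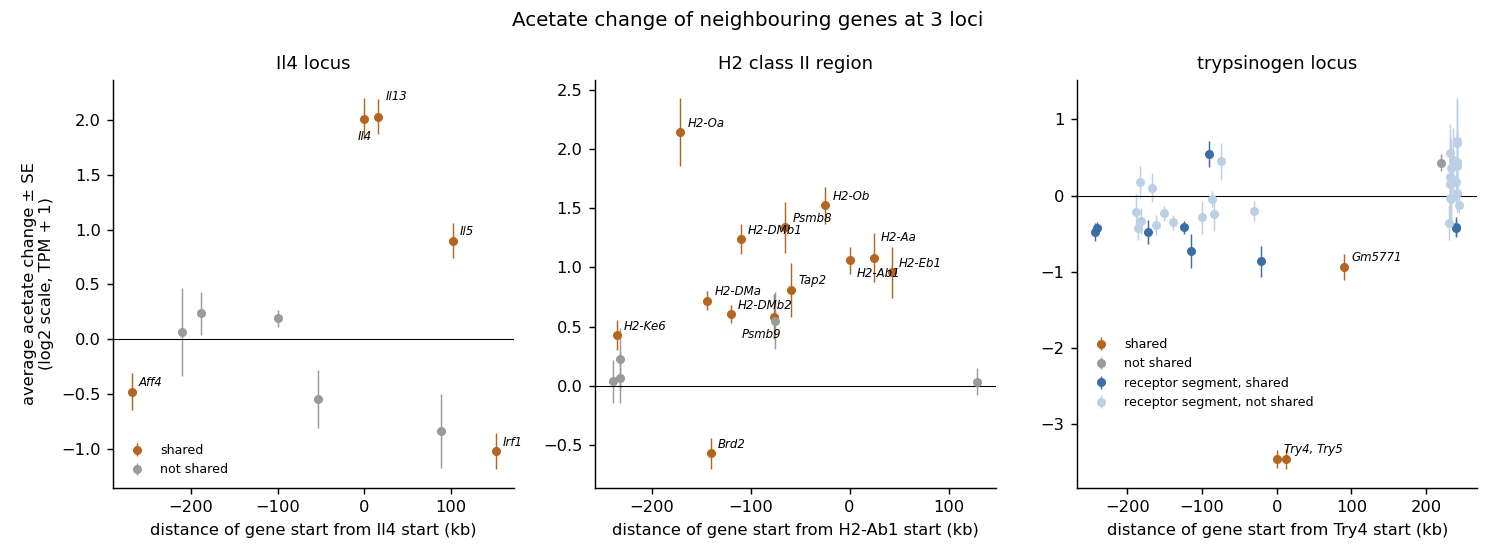
Average log2 change with acetate of the tested genes around Il4, in the H2 class II region and around the trypsinogen gene Try4, by distance in kb from the anchor gene. Some rises stand beside neighbours near 0, such as Ring1 (0.04) and Slc39a7 (0.07) in the H2 class II region. Rad50 beside Il13 stands at -0.84, and the receptor segments around Try4 range from -0.86 to 0.71.

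TNF superfamily ligands, which signal to other immune cells, had 8 of 12 tested genes higher, with a median of 0.83. Of all tested genes 16.2% were higher. Tnf, the gene of the founding member, rose by 1.08 ± 0.14 (adjusted p = 4.3e-05), from 488 ± 32.5 to 1489 ± 138 TPM in WT, from 375 ± 25.7 to 827 ± 127 TPM in GLUT3KO and from 1153 ± 389 to 1608 ± 380.4 TPM in ACLYKO. Its neighbour Lta, which encodes lymphotoxin alpha, rose by 1.63 ± 0.13 (adjusted p = 6.9e-07), with 1.72, 1.23 and 1.94 in the 3 genotypes. Lta libraries stood at 113 to 255 TPM without acetate and at 335 to 758 TPM with it. Fasl, the death ligand gene, rose by 1.24, Cd40lg by 0.81, Tnfsf11 (RANK ligand) by 0.87 and Cd70 by 1.83. Tnfsf4, which encodes OX40 ligand, was the 1 member called lower (-0.63), and voom on the recovered reads did not call it.

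Chemokine receptors, which steer T cells to tissues, were called higher in 10 of 12 tested cases with a median of 1.02, where 16.2% of all tested genes were. All 10 had the same sign in the 3 genotypes. Cxcr3, the receptor typical of Th1 cells, stood at 1.48, 2.94 and 4.95 TPM in untreated WT, 2.35, 5.94 and 3.75 TPM in GLUT3KO and 1.38, 3.83 and 3.57 TPM in ACLYKO. With acetate it stood at 14.2, 15.3 and 15 TPM in WT, 29.6, 24.4 and 24.8 TPM in GLUT3KO and 17, 29.8 and 28.7 TPM in ACLYKO. All 9 treated libraries lay above all 9 untreated ones (average 2.43 ± 0.20, adjusted p = 6.9e-07). Cxcr5, the receptor of follicular helper cells, rose by 2.15 ± 0.11 (adjusted p = 1.48e-08), from group means of 1.76, 1.3 and 0.51 TPM to 9.45, 4.56 and 13.4 TPM in WT, GLUT3KO and ACLYKO, and unevenly (F test adjusted p = 0.00196). Cxcr5 overlaps Bcl9l on the opposite strand, whose mean over 9 libraries moved from 4.355 TPM in untreated to 4.945 TPM in treated cells, a log2 change of 0.14, and no source used here says whether reads were counted by strand. Ccr6, typical of Th17 cells, rose by 1.33, with 0.90, 0.62 and 2.48 in WT, GLUT3KO and ACLYKO (F test adjusted p = 0.00139). Ccr1 rose by 1.22 and Ccr8 by 1.71. Of the chemokine ligands, 4 of 11 tested genes were higher (36.36%, beside 16.2% of all tested genes). They were led by Ccl3 (0.99 ± 0.11, adjusted p = 7.26e-06) and its close relative Ccl4 (0.94), between which the counting could split reads. Cxcl10, a ligand of CXCR3, fell by 1.29 ± 0.16 (adjusted p = 2.79e-05).

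The receptors and lineage factors that define Th17 cells had 13 of 21 tested genes higher, with a lower median of 0.34. Of all tested genes 16.2% were higher. The IL-1 receptor gene Il1r1 rose by 1.17 and the aryl hydrocarbon receptor gene Ahr by 1.12. Irf4, a factor needed for Th17 differentiation, went the other way (-0.75). Foxp3, the factor of regulatory T cells, stood at 0.14 (adjusted p = 0.369). The Th1 and cytotoxic list held 11 rises among 16 tested genes, beside the same 16.2% of all tested genes, with a list median of 0.82. Tbx21, the gene of the Th1 lineage factor T-bet, rose by 1.91 ± 0.14 (adjusted p = 3.15e-07), from 4.3 ± 0.401 to 19.2 ± 2.73 TPM in WT, from 20.9 ± 5.72 to 45.4 ± 11 TPM in GLUT3KO and from 2.85 ± 1.09 to 23.5 ± 2.55 TPM in ACLYKO (F test adjusted p = 0.0403). Il18rap rose by 0.96 and Stat4 by 0.99, Stat4 not over WT and GLUT3KO alone (adjusted p = 0.069). Both CD8 T cell markers, Cd8a and Cd8b1, also rose, with sums of 3.983 to 13.01 TPM without and 13.56 to 19.9 TPM with acetate, while 1 of 5 NK cell markers was tested and the sums of that list ran from 2.981 to 35.05 TPM. The part of such cells in these values was not tested.

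In the antigen presentation list 9 of 15 tested MHC genes rose, with a median of 0.72. The class II region on chromosome 17 had 12 common rises among 18 tested genes within 250 kb of H2-Ab1. Of all tested genes 16.2% were called higher and 14.3% were common rises. H2-Oa and H2-Ob encode the class II-like pair that restrains peptide loading by H2-DM, the product of H2-DMa with H2-DMb1 or H2-DMb2. H2-Oa stood at 7.51, 10.6 and 7.59 TPM in untreated WT, 3.23, 3.15 and 2.6 TPM in GLUT3KO and 3.06, 28.1 and 22.8 TPM in ACLYKO. With acetate it stood at 34.1, 34.8 and 32.1 TPM in WT, 18.9, 21.8 and 21.9 TPM in GLUT3KO and 50.9, 67.9 and 60.7 TPM in ACLYKO. By the rule of choice the groups did not overlap in any genotype, and ACLYKO replicate 1 lay far below its untreated partners (average 2.14 ± 0.29, limma adjusted p = 5.86e-05). H2-Ob rose by 1.53, H2-DMb1 by 1.24 ± 0.13 (adjusted p = 5.82e-06) and H2-DMa by 0.72. Their means over 9 libraries were low, at 0.412, 0.4546 and 0.9552 TPM without and 3.307, 2.468 and 2.319 TPM with acetate. H2-DMb2 (0.2814 and 1.042 TPM) and H2-Aa (0.5269 and 2.481 TPM) were also low. Such genes could pass the filter of 1 TPM in 3 libraries through their acetate libraries, which favours rises among them. The 12 common rises include these genes. For H2-Ab1, a chain of the classical class II molecule, the change was 0.49 in WT, 0.05 in GLUT3KO and 2.64 in ACLYKO (F test adjusted p = 0.000315), and it was not called over WT and GLUT3KO alone (adjusted p = 0.125). Brd2, a bromodomain gene in the same region, fell by 0.57. MHC genes are close relatives, so reads could be split between them. B cell markers summed to 13.25 to 20.74 TPM in untreated and 18.37 to 22.33 TPM in treated WT. Their sums were lower with acetate in GLUT3KO (17.9 to 20.76 TPM without, 10.74 to 14.26 TPM with it) and higher in ACLYKO (5.521 to 12.12 TPM without, 23.34 to 32.8 TPM with it), with Cd79b (1.05) the 1 of 2 tested members that rose, and dendritic cell markers to at most 2.045 TPM, with Siglech at 0. Their part in the class II values was not tested.

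Outside immune genes the largest rise was that of Pdlim4, which encodes a cytoskeletal protein with PDZ and LIM domains. It stood at 0.2, 0.942 and 1.65 TPM in untreated WT, 0.318, 1.14 and 0.803 TPM in GLUT3KO and 0, 0.273 and 0.594 TPM in ACLYKO. With acetate the values were 8.27, 8.57 and 6.77 TPM, 17.5, 19.5 and 15 TPM, and 6.54, 11.6 and 9.81 TPM. The gene thus went from between 0 and 1.65 TPM to between 6.54 and 19.5 TPM in the 9 treated libraries (2.89 ± 0.16, limma adjusted p = 2.75e-08). It passed the filter of 1 TPM in 3 libraries only with its acetate libraries, which favours a rise. Rhoc, which encodes a small GTPase, rose by 2.62 ± 0.14 (adjusted p = 1.48e-08) from very different starting levels. Its WT libraries went from 6.52, 6.26 and 9.27 TPM to 38.8, 33.4 and 30.7 TPM. GLUT3KO went from 33.8, 47.5 and 47.1 TPM to 284, 309 and 293 TPM, and ACLYKO from 2.3, 4.94 and 5.54 TPM to 32.3, 44.2 and 41 TPM. The log2 changes of Rhoc were 2.09, 2.77 and 2.98, and the F test gave an adjusted p of 0.295. Tff1, the gene of a secreted trefoil peptide of mucosa, rose by 2.76 and went from 3.51 ± 0.84 to 101 ± 29.1 TPM in ACLYKO, with an F test adjusted p of 0.0529. Other leading rises were Rcn3 (2.36), a calcium-binding protein of the endoplasmic reticulum, Lgals7 (2.31), a galectin, Galm (2.26), a sugar mutarotase, Cd63 (2.24), a tetraspanin of late endosomes, and Rab34 (2.15), a GTPase of membrane traffic.

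**Figure D4:**
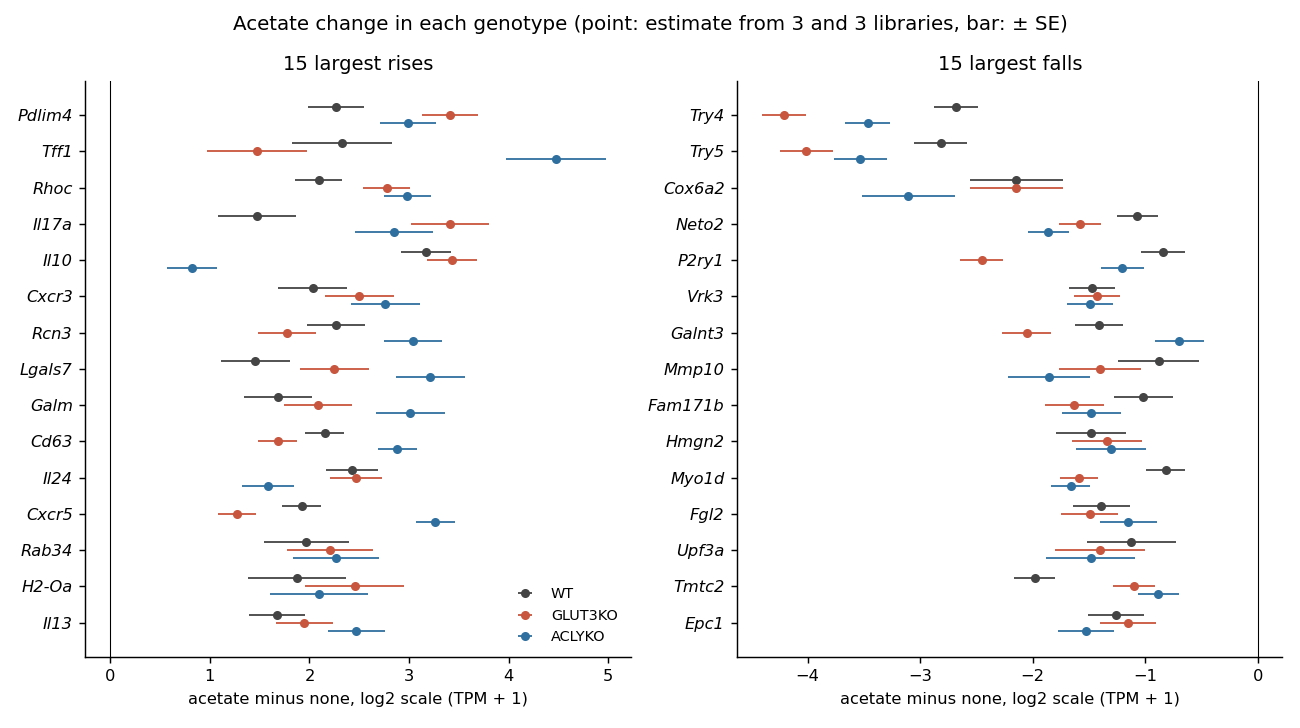
Log2 change with acetate in WT, GLUT3KO and ACLYKO for the 15 largest rises and 15 largest falls among members whose libraries did not overlap in any genotype, with error bars of 1 SE from limma. The points of Vrk3 and Hmgn2 lie close together, while Tff1 (1.48 in GLUT3KO and 4.47 in ACLYKO), Il10, Cxcr5, Il17a and Lgals7 are among the genes whose points lie far apart.

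The largest falls were those of trypsinogen genes, which lie inside the T cell receptor beta locus on chromosome 6 and encode digestive proteases of the pancreas. Try4 (GeneID 22074, 41302272 to 41305533) stood at 21.1, 13 and 9.97 TPM in untreated WT, 55.2, 45 and 56.8 TPM in GLUT3KO and 22, 25.5 and 22.8 TPM in ACLYKO. With acetate it stood at 1.18, 1.47 and 1.37 TPM, 2.07, 1.76 and 1.8 TPM, and 1.34, 1.11 and 1.16 TPM. All 9 treated libraries thus lay within 1.11 to 2.07 TPM, far below the lowest untreated one, and the average fall was -3.45 ± 0.11 (adjusted p = 1.75e-10). The fall was deeper in GLUT3KO (-4.21) than in WT (-2.68), and the F test gave an adjusted p of 0.014. Try5, 12.44 kb away, fell by 3.45 as well, from group means of 27, 84.9 and 35.1 TPM to 3.02, 4.17 and 2.09 TPM. Of 6 tested trypsinogens 5 fell, the others being 1810009J06Rik (-1.38), Gm2663 (-1.18) and Gm5771 (-0.93), with a list median of -1.28. Gm5771 was low, with means over 9 libraries of 1.27 TPM without and 0.08967 TPM with acetate. It passed the filter of 1 TPM in 3 libraries through its untreated ones, which favours a fall. Prss2 was called higher (0.43) with unequal signs, and not after the GC and length correction (adjusted p = 0.172). These paralogs are close copies, and reads could be split among them. The Try4 promoter is shown because this was the deepest fall, and it held no match to the 5 motifs searched, so no letters are in capitals.
Try4 promoter, plus strand, chr6:41302022-41302321: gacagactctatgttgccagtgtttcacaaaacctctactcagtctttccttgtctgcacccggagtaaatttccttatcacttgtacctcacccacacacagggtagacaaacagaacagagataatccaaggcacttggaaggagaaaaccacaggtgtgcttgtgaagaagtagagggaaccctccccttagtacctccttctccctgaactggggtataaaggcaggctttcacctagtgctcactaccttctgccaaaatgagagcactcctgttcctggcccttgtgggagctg
It is the RefSeq sequence of GRCm38.p6.

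A fall of this depth was not general to this locus. Within 250 kb of Try4, 42 genes were tested, of which 38 are segments of the T cell receptor itself. Those segments had a median change of -0.081, a range from -0.86 to 0.71, 1 common rise and 8 common falls. Of all tested genes 14.3% were common rises and 15.1% common falls. The 8 falls were the V segments Trbv4, Trbv5, Trbv13-3, Trbv19, Trbv20 and Trbv30 and the J segments Trbj2-1 and Trbj2-2. Trbv30, the tested segment nearest to Try4 at -20.9 kb, stood at -0.86 (limma adjusted p = 0.00493). Of 10 pancreatic acinar markers 6 were at 0 in all libraries (Cela2a, Cela3b, Cpa1, Cpb1, Amy2a5 and Ctrb1), and the list summed to 1.341 to 7.103 TPM without and 6.158 to 8.603 TPM with acetate. The 1 tested member of that list, Cela1, rose by 0.81, opposite to the trypsinogens.

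Cox6a2, the gene of the muscle isoform of a cytochrome c oxidase subunit, fell by 2.46 ± 0.24 (adjusted p = 3.04e-06). WT libraries went from 8.72, 7.03 and 9.39 TPM to 1.14, 1.53 and 0.726 TPM, and GLUT3KO from 6.95, 6.91 and 8.29 TPM to 0.879, 0.656 and 1.18 TPM. ACLYKO went from 7.31, 33.8 and 37.7 TPM to 1.33, 2.13 and 1.41 TPM. The treated libraries of all genotypes came to lie together, while ACLYKO replicates 2 and 3 had started far above the rest. Hmgn2, which encodes a nucleosome-binding protein, fell by 1.37 ± 0.18 (adjusted p = 4.81e-05), from 45.2 ± 16.8 to 15.2 ± 3.72 TPM in WT, from 51.7 ± 2.27 to 21.2 ± 9.19 TPM in GLUT3KO and from 197 ± 31.7 to 80.6 ± 23 TPM in ACLYKO. Hmgn2 has many processed pseudogenes that could take part of its reads. Its promoter is shown as that of a fallen chromatin gene with a match to CACGTG, the E-box of MYC and related factors, in capitals.
Hmgn2 promoter, minus strand, chr4:133967942-133968241: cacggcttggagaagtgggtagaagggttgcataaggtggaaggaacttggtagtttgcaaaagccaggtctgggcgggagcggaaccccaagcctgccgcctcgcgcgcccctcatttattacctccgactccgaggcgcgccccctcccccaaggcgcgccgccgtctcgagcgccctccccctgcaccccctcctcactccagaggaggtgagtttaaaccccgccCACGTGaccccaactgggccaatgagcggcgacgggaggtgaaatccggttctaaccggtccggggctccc
The match begins 21 bases before the RefSeq start (GRCm38.p6). Further falls were those of the ADP receptor gene P2ry1 (-1.50, F test adjusted p = 0.00634), the kinase family gene Vrk3 (-1.47), the metalloproteinase gene Mmp10 (-1.38), the unconventional myosin gene Myo1d (-1.36), the immunosuppressive fibrinogen-like gene Fgl2 (-1.34) and Upf3a (-1.34), a gene of nonsense-mediated decay. Vrk3 fell nearly evenly, by 1.47, 1.43 and 1.49 on the log2 scale in WT, GLUT3KO and ACLYKO.

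Promoters of 300 bases, 250 before and 50 after the start, were searched on both strands for TGANTCA (AP-1), TGACGTCA (CRE), GGAAAA (NFAT), TTCNNNGAA (STAT) and CACGTG (E-box). RefSeq gave 11 promoters for 10 of the 15 named rises and 10 promoters for 9 of the 15 named falls. NFAT matches stood in 5 promoters of the rises and in 2 of the falls, AP-1 matches in 2 of each. Over all 32851 promoters of the table the shares were 23.4% for NFAT, 7.81% for AP-1, 8.3% for STAT, 1.79% for CRE and 7.15% for the E-box. Over the 1912 promoters of common rises they were 19.7%, 6.22%, 7.11%, 2.09% and 8.58%, and over the 2096 of common falls 21.5%, 5.44%, 6.87%, 3.91% and 10.1%. The whole set of members thus stayed near the shares of tested genes, which were 21%, 5.11%, 6.93%, 3.16% and 10.1%. A match is a run of letters, not a measured binding site.

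Genes of acetate use itself moved little as a group. In the acetyl-CoA list 3 of 15 tested genes were higher and 2 lower, with a median of -0.036. These shares of 20% and 13.33% were near the 16.2% and 16.5% of all tested genes. Acss2, the nuclear and cytosolic synthetase, stood at -0.04 (adjusted p = 0.819) and the monocarboxylate transporter gene Slc16a1 at -0.15 (adjusted p = 0.229). Acss1, the mitochondrial synthetase, passed in the average (0.57 ± 0.08, adjusted p = 0.000142) with 0.57 in WT, -0.02 in GLUT3KO and 1.14 in ACLYKO, so it was no member (F test adjusted p = 0.012). Acss1 levels were low, at 0.43 to 1.08 TPM without and 0.645 to 2.55 TPM with acetate. The citrate carrier gene Slc25a1 rose by 0.86 and Acot7 by 0.58, while Pdhb, a pyruvate dehydrogenase subunit gene, and Acat1 were lower (both -0.33, Acat1 with unequal signs). Without the 5 high-scoring libraries, 5 members of this list were lower, and with voom on the recovered reads 1. Acly stood at 0.20 (adjusted p = 0.236). Among monocarboxylate transporters, Slc16a3, whose product exports lactate, rose by 1.56 ± 0.31 (adjusted p = 0.00163), the chaperone gene Bsg by 0.32 and Slc16a6 by 0.30, and Slc16a10 fell by 0.80. Bsg was not called after the GC and length correction (adjusted p = 0.567), nor were Slc16a3 and Slc16a6 over WT and ACLYKO alone (adjusted p = 0.0526 and 0.089). The lower count of that list was 3 without the 5 high-scoring libraries and 2 with the replicate block. Receptors for short-chain fatty acids were below the filter, with 5 genes of that list in the table and no tested member.

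Glycolytic genes had 9 of 18 tested members higher with a median of 0.32, where 16.2% of all tested genes were higher. Tpi1 rose by 0.84, Pgam1 by 0.74, Pfkfb3 by 0.59 and Ldha, for lactate dehydrogenase A, by 0.57 ± 0.10 (adjusted p = 0.000815), from 351 ± 7.19 to 488 ± 13.2 TPM in WT, from 181 ± 18.2 to 311 ± 17.5 TPM in GLUT3KO and from 413 ± 123 to 544 ± 11 TPM in ACLYKO. Over WT and ACLYKO alone Tpi1 and Ldha were not called (adjusted p = 0.0618 and 0.0604), nor was Pfkfb3 over both knockouts alone (adjusted p = 0.08). Slc2a3 rose by 0.84 ± 0.16 in the average (adjusted p = 0.00118). Among the remaining reads of GLUT3KO alone its change was 0.72 and not called (adjusted p = 0.104), while Slc2a1, the gene of GLUT1, stood at 0.10 (adjusted p = 0.636). TCA cycle genes were mixed, with 3 of 21 higher (Suclg1, Idh2 and Fh1, the call of Fh1 ending without any 1 of 8 libraries, with adjusted p up to 0.0598) and 5 lower (among them Idh1 and Sdha), and 5 and 8 without the 5 high-scoring libraries. After the GC and length correction 6 were higher. The median of this list was 0.11, and its shares of 14.29% higher and 23.81% lower stood beside 16.2% and 16.5% of all tested genes. In the lipid droplet and fatty acid oxidation list 5 of 18 tested genes were higher and 2 lower, and 9 and 4 without those libraries. With all libraries, 27.78% of this list were higher and 11.11% lower, beside 16.2% and 16.5% of all tested genes. Plin2, for a protein that coats lipid droplets, stood at 15.1, 18.1 and 23 TPM in untreated and 39.5, 42.7 and 42.1 TPM in treated WT. GLUT3KO libraries had 50.3, 59.1 and 41.4 TPM without and 158, 151 and 147 TPM with acetate, and ACLYKO libraries 0.627, 1.9 and 1.91 TPM without and 17.3, 18.2 and 16.7 TPM with it. Plin2 thus rose from unlike starting levels, with untreated means of 18.8, 50.3 and 1.48 TPM (1.89 ± 0.12, adjusted p = 8.85e-08), and most in ACLYKO (2.94, F test adjusted p = 0.00528). Cpt1a, for the entry of fatty acids into mitochondria, rose by 0.79, while the oxidation genes Hadhb (-0.36) and Hadha (-0.29) were lower, Hadhb not after the GC and length correction (adjusted p = 0.353) and neither with voom.

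NRF2 targets, the genes of the antioxidant response, had 7 of 14 tested members lower with a median of -0.28, where 16.5% of all tested genes were lower. Gclc, for the rate-limiting enzyme of glutathione synthesis, fell by 1.13 ± 0.14 (adjusted p = 2.85e-05), from 32 ± 9.67 to 16.5 ± 1.85 TPM in WT, from 33.7 ± 5.72 to 10.5 ± 0.426 TPM in GLUT3KO and from 35.2 ± 14.2 to 17.4 ± 2.29 TPM in ACLYKO. Nqo1 fell by 1.32, the ferritin gene Fth1 by 0.51 and Gclm by 0.40. Over WT and ACLYKO alone Nqo1 and Gclm were not called (adjusted p = 0.0831 and 0.071). In the unfolded protein response list 4 of 19 tested genes were lower (21.05%, near the 16.5% of all tested genes), led by Sel1l (-0.77) and Dnajb9 (-0.64). The 1 higher member was Edem1 (0.20), and the list median was -0.23. The call of Edem1 ended with the replicate block (adjusted p = 0.0817), with median-ratio scaling (adjusted p = 0.0749) and without any 1 of 14 libraries. The other lower members, Creld2 (-0.23) and Calr (-0.42), lost their call without any 1 of 11 and of 12 of the 18 libraries, with adjusted p of 0.0512 to 0.0752 and of just above 0.05 to 0.0789. ACLYKO replicate 2, ACLYKO with acetate replicates 2 and 3, GLUT3KO replicate 3, GLUT3KO with acetate replicates 2 and 3, WT replicate 1 and WT with acetate replicates 2 and 3 ended both calls. Creld2 also lost its call without GLUT3KO replicate 2 or WT replicate 3, and Calr without GLUT3KO replicate 1, GLUT3KO with acetate replicate 1 or WT with acetate replicate 1. The lower count of the unfolded protein response list was 7 with the replicate block, 7 after the GC and length correction and 10 without the 5 high-scoring libraries. In the JAK-STAT list 7 of 15 tested genes were higher, beside 16.2% of all tested genes. Among the 7 were the feedback genes Socs1 (1.19), Socs2 (0.67) and Socs3 (0.59). The 3 lower genes (20%, near the 16.5% of all tested genes) were the kinase genes Pim2 (-1.18) and Jak2 (-0.69) and, with unequal signs, Bcl6 (-0.31). The calls of Jak2 and Bcl6 ended without any 1 of 9 and of 11 libraries (adjusted p up to 0.0669 and 0.0887). The lower count was 5 without the 5 high-scoring libraries, 5 with the replicate block and 1 with median-ratio scaling.

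Of 12 tested genes for histone acetyltransferases, the writers of histone acetylation, 7 were lower in the average, with a median of -0.36. Of all tested genes 16.5% were lower. The 7 acetyltransferase genes had the same sign in each genotype, and 2 were called in GLUT3KO taken alone. The count of lower genes of this list in the average was 6 after the GC and length correction. Crebbp (-0.81), Kat6b (-0.71) and Ep300 (-0.65), which encode large coactivators, were among them, and over WT and ACLYKO alone these 3 were not called (adjusted p = 0.086, 0.186 and 0.106). Bromodomain readers, whose products bind acetylated histones, had 6 of 10 tested genes lower with a median of -0.56, beside the same 16.5%. Brd8 stood at 46.7, 28.2 and 29.8 TPM in untreated WT, 61.4, 38.9 and 54.5 TPM in GLUT3KO and 79.2, 36.9 and 32.3 TPM in ACLYKO. With acetate it stood at 18.3, 18 and 18.3 TPM, 27.8, 26.5 and 27.7 TPM, and 36.7, 21.1 and 24.5 TPM. The highest untreated library of each genotype was replicate 1, which is among the 5 high-scoring libraries, and without those 5 the change of Brd8 was -0.57 in place of -0.83 (adjusted p = 9.32e-06). Brd2 (-0.57), Trim24 (-0.69) and Brd1 (-0.49) were not called over WT and ACLYKO alone (adjusted p = 0.081, 0.07 and 0.055). Both lists hold long genes, with median exon lengths of 7140 and 6360 bases. Epc1, for a subunit of the NuA4 acetyltransferase complex, fell by 1.31 ± 0.14 (adjusted p = 9.75e-06).

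Among histone deacetylases and sirtuins, 4 of 15 tested genes were higher and 4 lower, with a median of 0.019. Each share was 26.67%, beside 16.2% and 16.5% of all tested genes. Sirt1, for the nuclear sirtuin, stood at 33.9, 34.4 and 31.9 TPM in untreated and 17.6, 17.4 and 19.2 TPM in treated WT. GLUT3KO had 38.9, 48 and 42.9 TPM without and 27.7, 27 and 25.2 TPM with acetate, and ACLYKO 36.9, 47.5 and 50.2 TPM without and 24.6, 23.2 and 23.8 TPM with it. All 9 treated libraries lay below all 9 untreated ones, and the fall was close to even, with -0.85, -0.68 and -0.87 (average -0.80 ± 0.07, adjusted p = 1.65e-06, F test adjusted p = 0.862). The mitochondrial sirtuin genes went the other way, with Sirt3 higher by 1.21 ± 0.21 (adjusted p = 0.000451) and Sirt5 by 0.49. Sirt2 was also higher (0.47), as was Hdac1 (0.27, with unequal signs, and not called after the GC and length correction, adjusted p = 0.195, or without any 1 of 13 libraries), while Hdac2 (-0.47), Hdac4 (-0.39) and Hdac8 (-0.33) were lower, Hdac8 not after that correction (adjusted p = 0.178). Without the 5 high-scoring libraries, 8 genes of this list were lower.

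**Figure D5:**
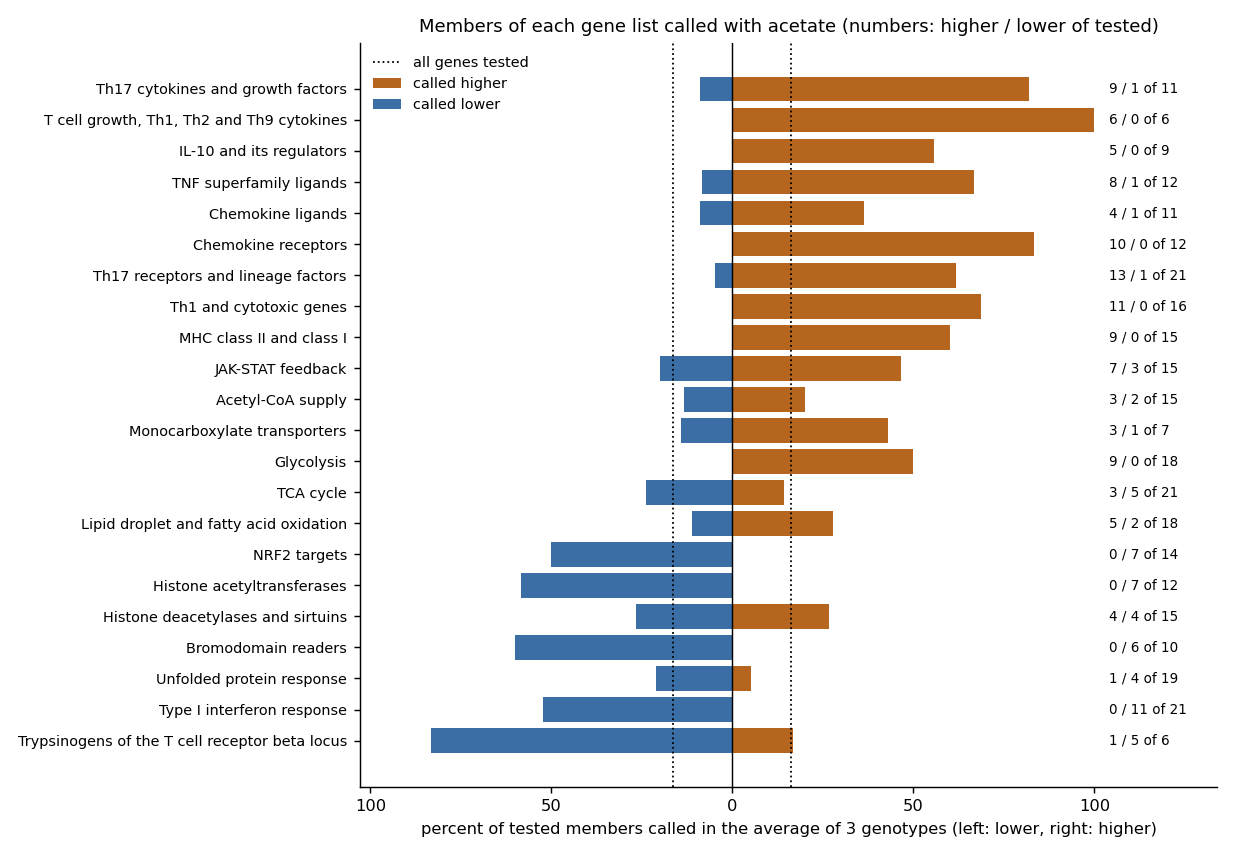
Share of tested members called higher and lower in the average over genotypes for 22 gene lists. Dotted lines mark the 16.2% and 16.5% of all tested genes called higher and lower.

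The type I interferon list shows where a call in the average was not a common response. Of 21 tested genes 11 were lower, yet 6 of those 11 had the same sign in all genotypes, and the F test called 11 of the 21. Over all tested genes 16.5% were lower in the average and the F test called 4.32%. The list had 12 members lower in ACLYKO, where 5.6% of all tested genes were lower, and its medians were 0.09 in WT, -0.061 in GLUT3KO and -1.04 in ACLYKO. Ifit1, an interferon-induced antiviral gene, stood at 4.29 ± 0.676 TPM in untreated and 0.193 ± 0.0526 TPM in treated ACLYKO. In WT it stood at 0.139 ± 0.0738 and 0.176 ± 0.033 TPM (F test adjusted p = 1.03e-05).

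At the threshold itself, the members closest to it were Gm13365 (0.96) and Gm20324 (-0.35), both with an adjusted p of 0.0499. The nearest genes outside were Rhbdf2 (0.54) and Stx2 (-0.22), with adjusted p of 0.05.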

How the data were processed

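Messenger RNA of 18 libraries in 6 groups of 3 was measured. The authors deposited TPM, neither counts nor another unit named in the file, for 45703 genes, with each gene's exon length in bases. The other unit in the deposited table is that length. Per the submitters' processing notes, the build was GRCm38.p6 and the tools were STAR 2.7.2b, featureCounts 1.6.4 from Subread, DESeq2, cutadapt and bcl2fastq 2.20.0.422, without their roles. Reads recovered from TPM, exon length and the step of 1 read were whole within 0.01 reads in 100% of values under 500 reads.

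Group means of log2(TPM + 1) over all 18 libraries were fitted with limma 3.58.1 in R 4.3.3 (eBayes, trend and robust on). Benjamini-Hochberg adjustment ran over 14229 genes, with a threshold of 0.05. Tables and figures used Python 3.11.15, pandas 2.3.3 and matplotlib 3.10.9. The procedure was tested on simulated data with noise drawn separately for each gene and library. Such noise lacks the axis that held 63.6% of the variance within groups. The rate of false calls with that axis present was not tested. Members, lists and tests were chosen with earlier results of these data known. Named genes are the 15 largest rises and 15 largest falls without overlap of libraries in any genotype and with a mean of at least 5 TPM in treated or untreated libraries, without unnamed models, pseudogenes and receptor segments, 16 fixed genes, up to 4 members of each of 22 lists by adjusted p, the trypsinogens and the genes at the threshold. Other genes of lists and loci were chosen after their values were seen, and not every gene under the rule is printed.

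The labels number the replicates and do not say what a number marks. Residuals of the 9 pairs of the same genotype and number correlated by 0.12 to 0.548, all above 0.1, so fits with a replicate block were given where they changed a call or a count. Further alternatives were pseudocount, filters, scalings, voom on recovered reads, a GC and length correction, the main axis as a covariate, and leaving out libraries or genotypes. Some genes of the lists are counted but not reported by name here.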

Additional observations from a re-analysis of the deposited data

Results flagged for a closer look

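The acetate change of 24 of the genes named by the rule differed in size or direction between WT, GLUT3KO and ACLYKO, by the F test in limma on the 3 changes with adjustment over all tested genes. The smallest adjusted p belonged to genes of the type I interferon response, Ifit1 (1.03e-05), Ifi44 (1.03e-05), Rsad2 (5.52e-05) and Oasl2 (5.52e-05), which were lower in ACLYKO. The class II gene H2-Ab1 followed with 0.000315.

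Among cytokine and cytokine-related genes the values were 0.000732 for Il17f, 0.00127 for Il10, 0.0152 for Il2, 0.0201 for Cxcl3, 0.033 for Fasl and 0.0433 for Tnfsf11. Chemokine receptors gave 0.00139 for Ccr6, 0.00196 for Cxcr5 and 0.00592 for Ccr1. Transcription factors gave 0.00434 for Stat4, 0.0115 for Ahr and 0.0403 for Tbx21.

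Of metabolic genes, Plin2 had 0.00528, Acss1 0.012 and Angptl4 0.0488. Among the largest falls, P2ry1 had 0.00634, Try4 0.014, Tmtc2 0.0462 and Galnt3 0.0492.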

How the results depend on the processing

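Of 121 named genes tested, 81 kept their call and direction under every alternative but the minimum change. Of the 114 called in the average, 0 had an estimate on the other side of 0 under any alternative, and of the 7 not called 4 did (Acss2, Slc16a1, Foxp3 and Slc2a1). Of 41 further genes named, all called in the average, 22 kept their call under every alternative but the minimum change, 10 lost it only where a genotype was left out and 6 without some 1 library, which were Bcl2a1d, Bcl6, Edem1, Fh1, Hdac1 and Jak2. In all, 4000 of the 4189 members were also members with the replicate block, 3537 with the GC and length correction, 3754 without the 5 high-scoring libraries and 3660 with voom. Fits with arrayWeights did not converge and are not given. The scores used as covariate come from the same residuals. The cause of each shift below was not tested.

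Counts are given as higher and then lower. A minimum log2 change of 1 left 347 and 106 in the average, 344 and 105 common, 84 and 16 in all 3 genotypes, 231 and 42 in WT, 273 and 268 in GLUT3KO, 784 and 203 in ACLYKO and 77 members of unequal size. The covariate for the main axis gave 4365 and 4187, 3659 and 3592, 1086 and 1149, 1977 and 2091, 2761 and 3750, 4039 and 2587, with F test counts of 3021 and, among members, 1495. Without the 5 libraries there were 4164 lower in the average and 3679 common falls, 596 and 859 in all 3 genotypes, 2023 and 1866 in WT, 1245 and 2251 in GLUT3KO, 2580 and 3203 in ACLYKO, and 1796 and 737 in the F test. The GC and length correction gave 366 and 289 in all 3 genotypes, 710 lower in WT, 1201 higher in GLUT3KO and 1490 lower in ACLYKO. A filter of 5 TPM, which tests fewer genes, gave 153 higher in all 3 genotypes, 348 in WT and 1107 in ACLYKO, and 307 and 112 in the F test. Pseudocount 0.1 gave 406 and 135 in the F test and voom 367 and 129. Median-ratio scaling gave 1041 higher in GLUT3KO and 1221 lower in ACLYKO, and quantile normalization 510 lower in WT and 1369 lower in ACLYKO. Voom moved the median of all genes from 0.014 to 0.106.

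The replicate block for genotype and number gave 213 lower in WT, where 324 were called without it, and 337 and 153 in the F test. The replicate block for number alone gave 1693 lower in GLUT3KO. Of the counts over all tested genes or members they changed no other by more than 1.5 times. In the described lists the lower count moved from 4 to 7 in the unfolded protein response, from 3 to 5 in the JAK-STAT list and from 1 to 2 among monocarboxylate transporters. The higher count moved from 1 to 0 in the unfolded protein response, from 0 to 1 among NRF2 targets and from 0 to 3 in the type I interferon response, and with the block for number alone from 3 to 5 in the TCA cycle. The block for genotype and number ended the calls of Gm20324, Edem1 and Bcl2a1d among the genes named.

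Leaving out WT gave 1340 and 1220 in the average and 1274 and 1184 common. Leaving out GLUT3KO gave 1503 and 808, with 781 common falls and 79 lower in both. Leaving out ACLYKO gave 3293 common falls and 622 and 707 in both. Fits of 6 libraries called 945 and 517 in WT and 343 and 81 in ACLYKO.

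Without 1 library at a time the counts ran from 1918 to 2883 and from 1821 to 3256 in the average, 1695 to 2585 and 1635 to 2857 common, 154 to 469 and 62 to 390 in all 3 genotypes, 349 to 1272 and 102 to 1100 in WT, 391 to 1623 and 506 to 2529 in GLUT3KO, 1219 to 2150 and 455 to 1338 in ACLYKO, and 381 to 1106 and 160 to 416 in the F test. The share of chosen genes with the same direction in the genotype left out ran from 95.52% to 97.8% and 90.29% to 93.33% in WT, 81.69% to 86.82% and 89.88% to 97.32% in GLUT3KO, and 81.28% to 92.32% and 70.06% to 83.69% in ACLYKO. At a gene length of 2000 bases 1 read is 0.0342 to 0.0719 TPM, which limits what can be said below about 1 TPM.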

Other observations

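Of 14 tested regulatory T cell genes 7 rose in the average, where 16.2% of all tested genes rose, with a median log2 change of 0.33, among them Entpd1 (1.29), which encodes the ectonucleotidase CD39, and Lrrc32 (0.78), a carrier of latent TGF-beta, while Foxp3 itself stood at 0.14 (adjusted p = 0.369). Of 11 tested coinhibitory receptor genes 5 rose, with a median of 0.33, and 8 without the 5 high-scoring libraries. Lag3 rose by 1.82, from a mean of 21.2 to 65.2 TPM in WT, from 38 to 71.9 TPM in GLUT3KO and from 21.8 to 112.8 TPM in ACLYKO. Of 16 tested BCL-2 family genes 4 rose, a share of 25% beside 16.2% of all tested genes, with a list median of 0.17. Of these 4, 3 encode death-promoting members, Bik (1.13), Bmf (1.04) and Bid (0.87), and the other is Bcl2a1d (0.34), one of several near-identical copies. The call of Bcl2a1d ended with the replicate block (adjusted p = 0.0504), median-ratio scaling (adjusted p = 0.0736), voom (adjusted p = 0.0565) and without any 1 of 13 libraries. Without the 5 high-scoring libraries 8 genes of this family were higher and 3 lower, and after the GC and length correction 7 and 3.

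Cell cycle genes showed no common direction. The 24 tested genes of G2 and M phase had medians of -0.57 in WT, -0.83 in GLUT3KO and 0.52 in ACLYKO. In the average limma called 0 of them, with 1 at an unadjusted p under 0.05 and 0 called by voom, while 1 was lower with the replicate block. Of 24 S phase genes 5 were lower (20.83%, near the 16.5% of all tested genes), among them Ccne2 (-0.63). The 1 higher gene was Ccne1 (0.72), a share of 4.167% beside 16.2% of all tested genes.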
